A study of Mus musculus with 3 samples.

Results

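The potassium channel genes outside the Kcne and Kcnq subfamilies were described in the mouse choroid plexus epithelium (CPE), the secretory cell layer of the choroid plexus. The set held every non-control probe whose gene name on the array began with Kcn, except names beginning with Kcne or Kcnq. This gave 110 of 41174 probes and 74 of 27845 gene names. The rule uses the gene name alone. They comprised pore-forming channel subunits and the accessory proteins whose names share the prefix. Kcnj13 was not analysed here.

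CPE cells were cut by laser dissection from the lateral ventricles of 3 healthy adult C57BL/6 mice, and the RNA of each mouse was amplified and hybridised to its own Agilent array. Cy5, the red dye, labelled the CPE RNA. The green dye Cy3 labelled a common reference, which was C57BL/6 RNA from 2 neighbouring eye tissues, the choroid and the retinal pigment epithelium (RPE). The study ranked genes by level in CPE, and the reference gives each probe a second tissue to be set against. No animal was treated or genetically altered, the dyes were not swapped, and the spread between biological samples of the reference is not part of any error below.

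Potassium channels let potassium ions pass down their electrochemical gradient and thereby set the membrane potential. In a secretory epithelium they return potassium that the sodium pump brings into the cell. In the choroid plexus they are known for a part in the secretion of cerebrospinal fluid and in the control of its potassium content. The voltage-gated (Kv) channels are best known from neurons and muscle, the inward rectifiers (Kir) from glia, heart and kidney, and the channels with tandem pore domains for the background conductance of many cell types.

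Each probe has 2 measures. Its rank is the percentile, among all probes, of its log2 red intensity averaged over the 3 mice, with high above 90, moderate from 50 to 90, low from 10 to 50 and very low below 10. The rank of the averaged intensity is not the average of the ranks in single mice and can lie outside their range. A rank depends on how brightly a probe binds as well as on the amount of RNA, so ranks of different genes are not amounts per molecule. Its ratio is the log2 of CPE over reference, with the mean over 3 mice and the standard error (SE) and Benjamini-Hochberg adjusted p of limma. Probes that differed by 2-fold or more with an adjusted p below 0.05 are said to pass the threshold.

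All 9 CPE markers examined, among them Ttr and Kl, were well above background in all mice, and 8 of 9 passed the threshold as higher in CPE. The exception was Otx2, at 0.14. All 8 photoreceptor markers passed it as lower in CPE, with a median of -4.78, although the reference was labelled as RPE and choroid. Their summed linear level ran from 173055 to 178081 in the reference and from 5011 to 6789 in CPE. Of 8 neuron markers, 4 were lower in CPE with sums of 17885 to 20268 in the reference and 2413 to 2849 in CPE. Markers of RPE and melanocytes (7 of 8), stroma (4 of 4), red blood cells (3 of 3) and macrophages (4 of 5) were lower in CPE as well, as was 1 of 6 for pericytes and smooth muscle and 0 of 5 for endothelium, and all but Tyr were above background in CPE in at least 1 mouse. Array 3 had more probes well above background than the others, 85.6% in its CPE channel against 58.5% on array 1 and 46.0% on array 2.

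Fewer potassium channel probes than probes at large gave a signal in every mouse. In CPE 31 of the 110 probes, from 28 genes, were well above background in the CPE channel on all arrays, which is 28.2% against 44.9% of all probes. In the reference 59 did so, 53.6% against 61.5%. Both channels were well above background for 28 probes, the reference alone for 31 and CPE alone for 3. A further 44 probes were above background in CPE in 1 mouse, and in 42 of these cases it was mouse 3. Per array, 57, 35 and 95 of the probes were above background in CPE in mice 1, 2 and 3. In 10 probes no mouse was above background. In array data fewer cells that use a gene and less RNA per cell cannot be told apart.

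By rank 1 probe was in the high class, 33 were moderate, 67 low and 9 very low. Among all probes the shares were 10%, 40%, 40% and 10%. The median rank was 42.2, beside 50 for all probes. The plot of ranks by subfamily shows where the 110 probes lay.

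**Figure D1:**
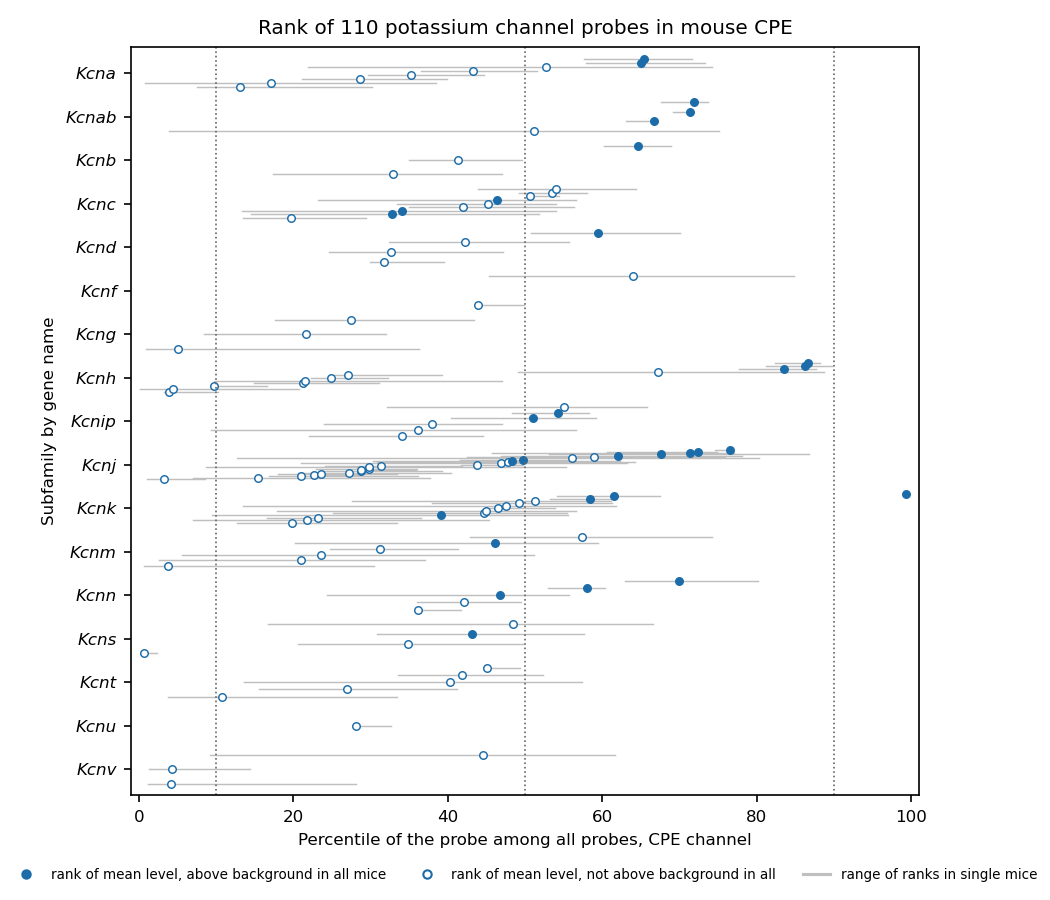
Percentile rank of each of the 110 probes in the CPE channel among all probes (horizontal axis), arranged by subfamily (vertical axis). Circles are the rank of the intensity averaged over 3 mice, filled where the probe was well above background in all mice, grey lines run from the lowest to the highest rank in a single mouse and need not hold the circle, and dotted lines mark the percentiles 10, 50 and 90. A single probe, that of Kcnk1 at 99.4, lies above 90, and the 3 filled probes of Kcnh1 and Kcnh2 lie between 83.6 and 86.7.

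Of the 110 probes, 62 from 49 genes could be tested for a ratio, because they were well above background in at least 1 channel on all arrays. Of these, 16 (25.8%) passed the threshold, against 17.3% of all 25841 probes tested. As higher in CPE 5 passed (8.06% against 7.09%), from 4 genes, and as lower in CPE 11 passed (17.7% against 10.2%), from 10 genes. The higher share thus lay near that of all probes. The 31 probes seen on all arrays in the reference alone entered the test through the channel in which they were bright, and 5 of the 11 lower probes, those of Kcnv2, Kcna5, Kcnma1 and Kcnc1 and 1 of 2 for Kcnip4, were among them. All 16 had the same sign in every mouse. An adjusted p under 0.05 at any size of difference was reached by 27 probes (43.5% against 39.2% of all), so that 11 of them had a fitted difference under 2-fold. That size holds for the main processing only. With the scanner software's own ratio 9 of these 11 passed the threshold, so under 2-fold is no limit on their size. For Kcnh7, 1 of the 9, CPE was also above background in no mouse. The median ratio of the 62 probes was -0.03, beside -0.04 over all probes tested.

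**Figure D2:**
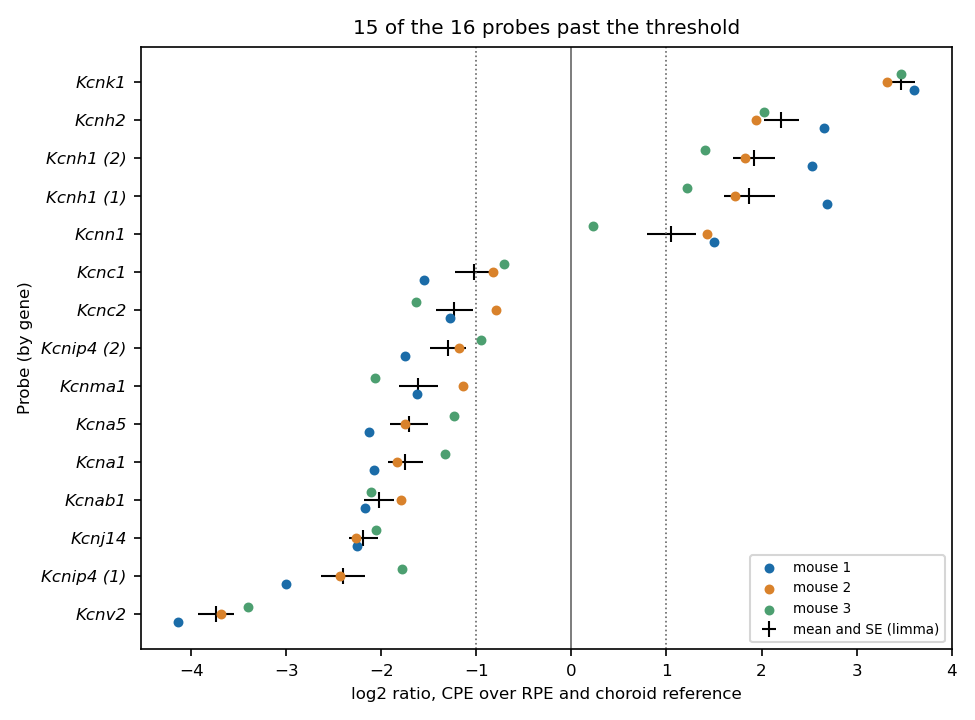
The log2 ratio of CPE over the reference (horizontal axis) for 15 of the 16 probes past the threshold, by gene (vertical axis). Coloured points are the 3 mice, black marks are the mean and SE from limma, and dotted lines mark a 2-fold change. The ratios of Kcnk1 run from 3.32 to 3.60 and those of Kcnv2 from -4.14 to -3.40, while mouse 3 of Kcnn1 lies at 0.23.

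Kcnk1 encodes a tandem pore domain channel that carries background potassium current. Its probe lies at chr8:128916471-128916530 on the plus strand (build mm8). In CPE it ranked at percentile 99.2, 99.3 and 99.4 in mice 1, 2 and 3, and no other member passed 90 in any mouse. Its CPE level on the log2 scale was 13.76, 13.85 and 13.996. The common reference on the same arrays read 10.16, 10.53 and 10.53. The ratios were 3.60, 3.32 and 3.47, with a mean of 3.46 (SE 0.15, n = 3, limma adjusted p = 9.83e-06), an 11.02-fold difference.

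The other 12 probes for tandem pore domain channels covered 9 genes and none passed the threshold. Kcnk3, an acid-sensitive channel, had 2 probes at mean ratios of 0.11 and 0.29 and ranks of 51.3 and 58.4. Kcnk5, another acid-sensitive background channel, had 2 probes at -0.24 and 0.02 and ranks of 61.6 and 23.2. At the second, CPE was above background in 1 mouse. Kcnk2, a mechanosensitive background channel, was not tested, since CPE was above background in 1 mouse and the reference on 2 arrays; its ratios were 0.42, 0.31 and 0.65. Kcnk13 ranked at 51.7 and 55.6 in mice 1 and 2 and at 9.5 in mouse 3. The mean ratio of the 8 tested probes ran from -0.43 for Kcnk6 to the 3.46 of Kcnk1.

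The Kcnh genes encode voltage-gated channels, the EAG and ERG types among them. Of 11 probes for 7 genes, 4 were tested and 3 passed the threshold, all higher in CPE. Kcnh2, the ERG channel that repolarises heart muscle, had CPE levels of 10.29, 9.65 and 9.94 against 7.64, 7.71 and 7.91 in the reference. On every array the CPE level of Kcnh2 was above that of the common reference. Its ratios were 2.66, 1.94 and 2.03, with a mean of 2.21 (SE 0.19, limma adjusted p = 0.000128) and a rank of 86.7.

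Kcnh1 is the EAG channel itself, known from brain. Its 2 probes lie at chr1:194207324-194207383 and chr1:194210172-194210231 on the plus strand (mm8). The ratios of the first were 2.69, 1.72 and 1.21, and those of the second were 2.53, 1.83 and 1.40. Both probes put mouse 1 highest and mouse 3 lowest. The means were 1.87 (SE 0.27, limma adjusted p = 0.00146) and 1.92 (SE 0.22, limma adjusted p = 0.000581), and their difference of 0.05 was smaller than either SE. The ranks were 86.3 and 83.6. The first probe had the largest SD over mice of all members tested, 0.75, beside a median SD of 0.30 for the members and 0.26 for all probes tested.

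Of the remaining Kcnh probes, 1 for Kcnh7, an ERG-type channel, was well above background on all reference arrays and in CPE in no mouse, so its CPE level has only an upper limit. From CPE readings that were not well above background, the fitted difference was 1.49-fold lower in CPE (limma adjusted p = 0.0287 against no difference). Its other 2 probes and the 5 for Kcnh3, Kcnh5, Kcnh6 and Kcnh8 were not tested, and 1 of these, for Kcnh3, ranked above 50 at 67.2, with mice 1, 2 and 3 at 49.1, 50.1 and 88.7.

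For the 3 genes with the highest ratios, the 250 bases before the annotated start are shown, so that a reader can see the sequence in front of each gene. They are those of RefSeq on GRCm38.p6, in the direction of the gene, and these coordinates are not comparable with the mm8 positions of the probes. Promoter sequence was found for 57 of the 74 genes. Capitals mark TAATC, the core letters bound by OTX-type homeodomain proteins, or its reverse GATTA. The windows are Kcnk1 at chr8:125994852-125995101 (plus strand), Kcnh2 at chr5:24329592-24329841 (minus strand) and Kcnh1 at chr1:192190527-192190776 (plus strand).
Kcnk1: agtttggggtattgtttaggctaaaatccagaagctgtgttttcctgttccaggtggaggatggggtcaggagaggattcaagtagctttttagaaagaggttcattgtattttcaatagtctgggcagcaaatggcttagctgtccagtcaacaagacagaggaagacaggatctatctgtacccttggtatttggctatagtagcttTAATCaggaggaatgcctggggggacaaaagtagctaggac
Kcnh2: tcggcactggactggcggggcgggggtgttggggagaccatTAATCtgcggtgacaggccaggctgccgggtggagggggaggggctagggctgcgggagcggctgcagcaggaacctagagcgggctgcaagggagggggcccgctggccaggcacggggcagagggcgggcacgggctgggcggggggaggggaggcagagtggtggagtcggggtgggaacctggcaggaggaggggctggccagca
Kcnh1: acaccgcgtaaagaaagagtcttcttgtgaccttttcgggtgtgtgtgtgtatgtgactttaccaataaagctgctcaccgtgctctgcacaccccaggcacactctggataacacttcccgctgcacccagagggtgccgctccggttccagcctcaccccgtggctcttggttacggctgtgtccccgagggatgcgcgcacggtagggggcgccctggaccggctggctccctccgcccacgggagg

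The windows differed in composition. That of Kcnk1 held 44.4% G and C and 0 CpG dinucleotides, that of Kcnh1 62.0% and 17, and that of Kcnh2 73.6% and 14, beside a median of 52.4% G and C over 32851 windows of this length. TAATC occurred on either strand in 19.8% of all windows and in 17.9% of the 78 windows of member genes. The longer TAATCC, which contains it, occurred in 6.25% of all windows, in 1 of the 78, and in none of the 3 shown. These matches are a description of letters only, and the motifs were chosen after the windows were seen.

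The calcium-activated channels gave 1 call in each direction. Kcnn1, a small-conductance channel opened by calcium through calmodulin, had ratios of 1.502, 1.42 and 0.23, with a mean of 1.05 (SE 0.26, limma adjusted p = 0.0153). Mouse 3 stood apart: on its array the reference level was 7.29, against 6.54 and 6.42, while the CPE level was 7.52, against 8.04 and 7.85. The reference was above background on 2 of 3 arrays. Without mouse 1 the mean was 0.83, without mouse 2 it was 0.86, and neither passed the threshold.

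Kcnn4, the intermediate-conductance channel known from red blood cells and secretory epithelia, ranked at 69.9 and had ratios of 0.73, 0.87 and 0.43. Its mean of 0.67 (SE 0.16, limma adjusted p = 0.0140) was under 2-fold. Kcnma1, the pore of the large-conductance calcium-activated (BK) channel, had ratios of -1.62, -1.14 and -2.07 and a mean of -1.61 (SE 0.20, limma adjusted p = 0.000803). It was above background in CPE in 1 mouse and ranked at 23.6. Kcnmb4, the BK accessory subunit known from brain, had a mean of -0.98 (limma adjusted p = 0.00417), just under 2-fold, and Kcnmb2, another BK accessory subunit, was not tested and ranked at 57.3. The sodium-activated channels Kcnt1 and Kcnt2 had 5 probes, all in the low class, with Kcnt1 reaching 45.0. Kcnu1, the sperm channel, had a ratio of 0.12 and a rank of 28.1, with CPE above background in 1 mouse.

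The Kv channels proper, Kcna to Kcnd with the silent subunits Kcnf, Kcng, Kcns and Kcnv, formed the largest class, with 36 probes for 24 genes. None ranked above 65.4. Of the 24 probes tested, 6 passed the threshold and all were lower in CPE. Kcnv2, a silent subunit known from photoreceptors, had the lowest ratio of all members. Its ratios were -4.14, -3.68 and -3.40, with a mean of -3.74 (SE 0.18, limma adjusted p = 1.35e-05), a 13.3-fold difference. The reference level was 11.26, 11.31 and 9.11 and the CPE level was 7.13, 7.63 and 5.71, so array 3 read lower in both channels. All 8 photoreceptor markers were lower in CPE as well, and their part in the ratio of Kcnv2 was not tested.

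Kcna1, a Shaker-type channel of axons, had ratios of -2.08, -1.83 and -1.33 and a mean of -1.75 (SE 0.19, limma adjusted p = 0.000372). Its probe was above background in all mice and ranked at 65.4, the highest of the class. Kcna5, a Shaker-type channel known from atrial muscle and blood vessels, had ratios of -2.13, -1.75 and -1.23 and a mean of -1.70 (SE 0.20, limma adjusted p = 0.000578), with CPE above background in 1 mouse. Kcna6 differed at 1 probe by less than 2-fold, at -0.73 (limma adjusted p = 0.0329). There mouse 3 at -0.10 lay far from the -1.11 and -0.99 of the others. The other probe of Kcna6 had a mean of -0.16 (limma adjusted p = 0.484) and ranked at 28.7, with CPE above background in 1 mouse. Kcna3, the channel known from lymphocytes, was not tested and ranked at 17.1.

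The Shaw-type channels Kcnc1 and Kcnc2, known for fast firing of neurons, each had 1 probe past the threshold and 1 tested probe short of it. For Kcnc1 the ratios were -1.55, -0.82 and -0.71, with a mean of -1.03 (SE 0.20, limma adjusted p = 0.00583). Without mouse 1 this probe fell short at -0.77. The other tested probe of Kcnc1 had a mean of -0.41. A further probe of Kcnc1 was not tested and had ratios of 0.76, 0.31 and 0.20, above 0 in every mouse. For Kcnc2 the ratios were -1.28, -0.79 and -1.63, with a mean of -1.23 (SE 0.19, limma adjusted p = 0.00225). The other tested probe had a mean of -0.91 (limma adjusted p = 0.00876). Both tested probes of Kcnc2 thus had mean ratios below 0 with an adjusted p under 0.05. A further probe of Kcnc2 was not tested and had ratios of -0.15, -0.29 and 0.25. The part of neuronal RNA in the reference, where 4 of 8 neuron markers were higher, in the ratios of the Kv genes was not tested.

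The A-type channels Kcnd1, Kcnd2 and Kcnd3 had mean ratios from -0.17 to 0.12 over 4 tested probes and none passed. In CPE the probe of Kcnd1 and 1 of 2 for Kcnd2 were above background in 1 mouse, and that of Kcnd3 in 2. Ratios near 0 at such probes do not show equal levels. Kcnd2 reached the highest rank, at 59.5, with ratios of -0.73, 0.38 and -0.15. Among the silent subunits, Kcns3 differed by less than 2-fold at -0.81 (limma adjusted p = 0.00717). The highest-ranked probes of Kcng3 and Kcns1 lay at 27.4 and 48.5. Of the 2 probes named Kcnf1, which lie on opposite strands, the one that matched a RefSeq transcript ranked at 43.9 and the other at 64.0, with 47.3, 45.3 and 84.8 in mice 1, 2 and 3. The 2 probes for Kcnv1 ranked at 4.1 and 4.2.

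The accessory proteins of Kv channels, Kcnab and Kcnip, had 10 probes, 7 of them tested and 3 past the threshold as lower in CPE. Kcnab1, a cytoplasmic beta subunit of Shaker-type channels, had ratios of -2.18, -1.80 and -2.11 at its tested probe. The mean was -2.03 (SE 0.16, limma adjusted p = 9.17e-05). This probe was above background in all mice and ranked at 71.9. The other probe of Kcnab1 was not tested, ranked at 51.2 and had ratios of 0.44, -0.13 and 0.04. Kcnab2, its relative, ranked at 71.4 and had ratios of -0.95, -1.07 and -0.92, with a mean of -0.98 (SE 0.15, limma adjusted p = 0.00198) just under 2-fold. The third, Kcnab3, ranked at 66.7 with ratios of 0.21, 0.64 and -0.26.

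Kcnip4, a calcium-binding partner of A-type channels, was lower in CPE by both of its probes. The ratios were -2.999, -2.43 and -1.79 at one probe and -1.75, -1.19 and -0.95 at the other. Both put mouse 1 lowest and mouse 3 nearest to 0. The means were -2.41 (SE 0.23, limma adjusted p = 0.000241) and -1.30 (SE 0.19, limma adjusted p = 0.00174), so the probes differed in size and not in direction. Kcnip1 differed by less than 2-fold, at -0.81 (limma adjusted p = 0.00486). The tested probe of Kcnip3 had a mean of 0.30 and ranked at 54.2. The highest rank of these partners, 55.1, was that of the other probe of Kcnip3, which was not tested. It ranked at 54.9, 32.1 and 65.9 in mice 1, 2 and 3.

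The inward rectifiers had 23 probes for 14 genes, of which 10 were tested and 1 passed. It was that of Kcnj14, which had ratios of -2.25, -2.26 and -2.05 and a mean of -2.19 (SE 0.15, limma adjusted p = 5.28e-05), a 4.56-fold difference. It still ranked at 76.6, the highest of the inward rectifiers, with a CPE level of 8.92, 8.66 and 8.72 against 11.17, 10.92 and 10.77 in the reference.

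Kcnj8 and Kcnj11 encode the pores of the ATP-sensitive channels, and both were above background in CPE in all mice. The ratios of Kcnj11 were 0.49, 0.54 and 0.46, with a mean of 0.49 (SE 0.15, limma adjusted p = 0.0324), which is under 2-fold, and its reference was above background on 2 arrays. The 2 probes of Kcnj8 had mean ratios of 0.29 and 0.48 and did not pass (limma adjusted p = 0.264 and 0.0677), with ranks of 72.5 and 49.8. In both probes mouse 3 lay lowest, at -0.16 and 0.09.

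Kcnj10, the rectifier of astrocytes and Müller cells, ranked at 71.4 and had ratios of -0.18, -0.13 and -0.75, with a mean of -0.35 (SE 0.18, limma adjusted p = 0.158). When arrays were centred on their median in place of loess, its mean was 0.08, so it has no settled sign. Kcnj2, a strong inward rectifier, had a ratio of -0.09 and a rank of 28.7, with CPE above background in 1 mouse. Kcnj4 had a mean of 0.65 at its tested probe (limma adjusted p = 0.0377) from 0.64, 1.12 and 0.18, with the reference above background on 1 array. The other probe of Kcnj4 was not tested and had ratios of 0.60, 0.04 and 0.26. The 2 probes of Kcnj9, a subunit of G protein-gated channels, disagreed, with means of -0.92 (limma adjusted p = 0.0180) and 0.12 (limma adjusted p = 0.583). At the second of these, CPE was above background in 1 mouse. The kidney channel Kcnj1 was above background in CPE in no mouse.

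**Figure D3:**
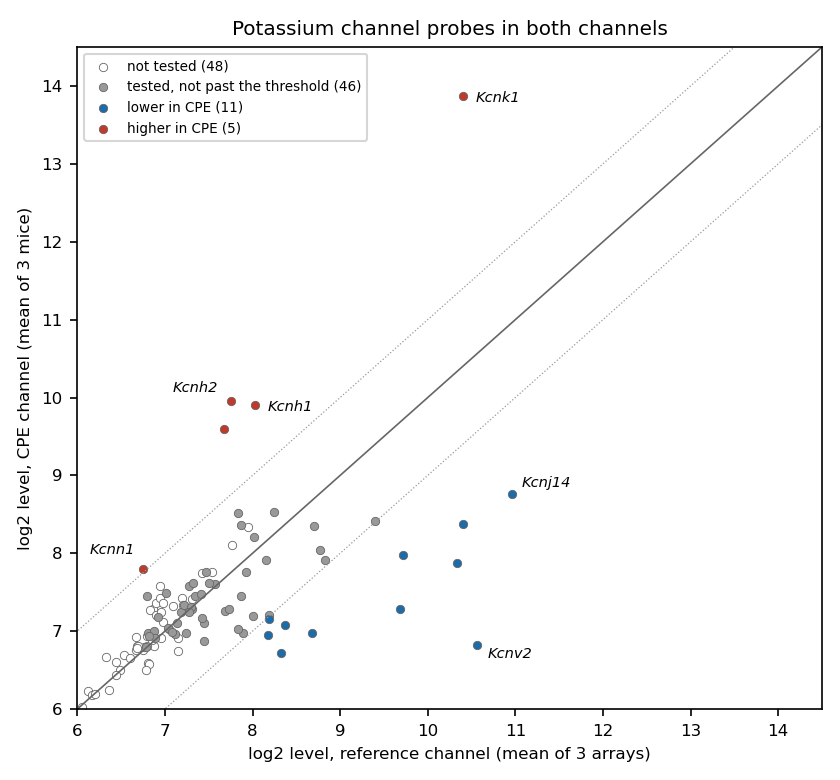
Mean log2 level of each of the 110 probes in the reference channel (horizontal axis) and the CPE channel (vertical axis), over 3 arrays, after background correction, loess and scaling between arrays. The solid line marks equal levels and the dotted lines a 2-fold difference, and Kcnk1 lies at 13.87 in CPE and 10.41 in the reference.

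Several probes were present for 30 genes. In 14 of them the probes fell into more than 1 rank class, always neighbouring ones, and the median gap between the highest and the lowest rank of a gene was 16.9 percentile points. At least 2 probes were tested for 13 genes. Both were past the threshold for Kcnh1 and Kcnip4, and 1 of 2 for 3 genes, Kcnc1 and Kcnc2 among them. Probes on both strands were present for Kcna6, Kcnf1 and Kcnj3, so that for these genes 1 probe lies on the strand opposite to the other. Probes of a gene share the RNA of the same mice and are not replicates.

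**Figure D4:**
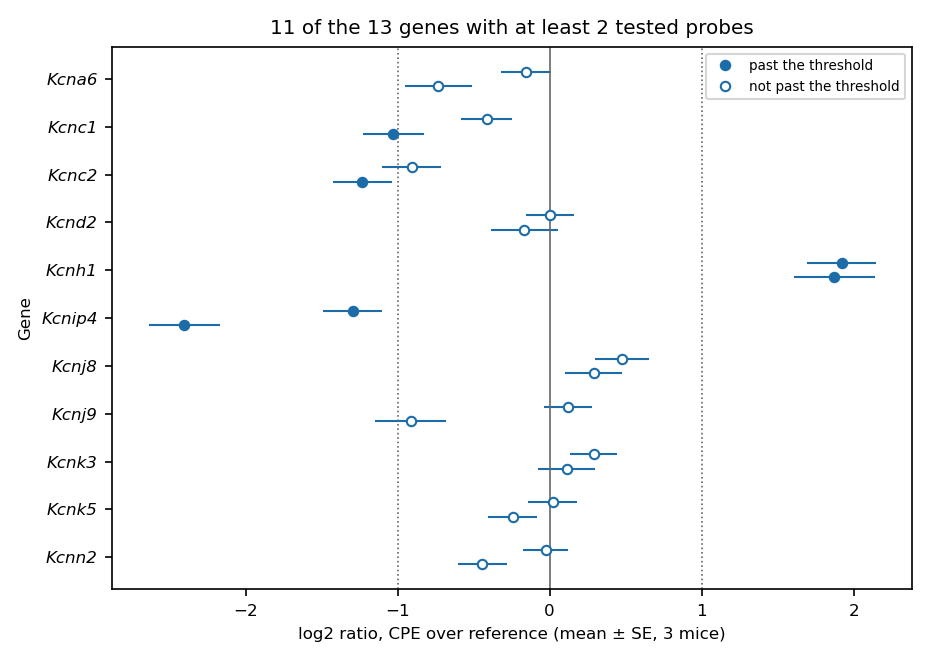
Mean log2 ratio of CPE over the reference with its SE over 3 mice (horizontal axis) for each tested probe of 11 of the 13 genes with at least 2 tested probes (vertical axis). Filled points passed the threshold. The 2 probes of Kcnh1 lie 0.05 apart and those of Kcnip4 1.11 apart.

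The spread between mice was close to that of all probes. The SD of the ratio over mice ran from 0.03 to 0.75 among the 62 tested members. In 26 of them the ratio was above 0 in some mice and below 0 in others, and these include Kcnj8 at its higher-ranked probe, Kcnk3 at 1 probe and Kcnab3.

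Other potassium transport genes were set beside the members from a list of 30, made up of the Kcne and Kcnq subunits, the sodium and proton pumps that import potassium, the cation-chloride cotransporters and the Hcn channels. Each gene was read at a single probe, the brightest over both channels, whereas the members were counted probe by probe. Of the listed genes 29 were on the array and 19 were tested, with 6 higher in CPE and 4 lower. Among all probes tested 7.09% were higher and 10.2% lower. The higher ones included Kcne2, an accessory subunit of voltage-gated potassium channels, the sodium pump subunit Atp1b1 and the cotransporters Slc12a2 and Slc12a4. Kcne2 had ratios of 4.49, 3.93 and 4.08, a mean of 4.17 (SE 0.17, limma adjusted p = 7.76e-06) and a rank of 99.8. Kcnq1, a Kv channel of epithelia, had a mean of 0.61 (SE 0.20, limma adjusted p = 0.0425), under 2-fold, and a rank of 64.3. The lower ones included Slc12a5 and Hcn3. The median ratio of the 19 was 0.46.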

How the data were processed

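Laser-dissected CPE of 3 mice (red) was set against 1 RPE and choroid reference (green), with 1 array and slide per mouse. The deposited scanner tables, which the authors produced in Agilent Feature Extraction 9.5.3.1, hold spot and local background intensity on a linear scale, processed intensity, the log10 of processed red over green, and other flags for saturation, outliers and a signal well above background. Per the file headers, probe positions are on mm8. A deposited table holds log2 levels that the authors had normalized between arrays with Aquantile in R 2.14.0. Its background correction is not given in the sources used here, and its columns had medians of 6.86, 6.82 and 6.85 and Spearman correlations of 0.998, 0.998 and 0.9997 with the CPE levels computed here.

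Ratios were computed in R 4.3.3 with limma 3.58.1: normexp background correction (offset 50), loess within arrays, spots of a probe averaged, and lmFit and eBayes on every probe that 1 channel or both showed well above background on each array, adjusted over all of them. For the text's levels per array, Aquantile followed. Ranks used log2 mean red intensity without background correction, after Aquantile, as in the study's methods. The fit was tested on simulated data. No member was saturated. Gene names are those of the array; 92 of 110 probes matched a RefSeq accession, and all 92 kept their name. No exon annotation of mm8 was used here. Single values of some genes that enter the counts are not reported here.

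Members and lists were chosen with earlier results of these data known. Each marker and each listed transport gene was read at its brightest probe over both channels. Named genes were those ranked above 90, the top-ranked gene of each subfamily, all genes past the threshold, and a fixed list of 17 channels, with others named where values or probes called for it after they were seen. The number of arrays limits the precision, and p-values measure the spread between 3 arrays. Alternatives varied background correction, normalization, source of values, filters, array weights, the test and the mice.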

Additional observations from a re-analysis of the deposited data

How the results depend on the processing

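Each ratio pairs both channels of an array, which carries 1 CPE sample against the same reference, and there is no second group of samples. Of the 5 higher and 11 lower probes, none changed sign under any alternative run. Those of Kcnk1, Kcnh2, Kcnv2, Kcnj14, Kcnab1 and Kcna1, and 1 probe each of Kcnh1 and Kcnip4, passed the threshold in every alternative that tested them. A test against a 2-fold change (limma treat) left 3 higher and 6 lower, and the requirement of a signal in both channels left 4 higher and 6 lower. The scanner software's own ratio gave 7 higher and 17 lower, and leaving out 1 mouse gave 4 to 5 higher and 10 to 14 lower. With the scanner ratio 9 probes under 2-fold in the main run passed. As higher these were Kcnj4 (2.49), Kcnn4 (1.55) and Kcnj11 (1.40). As lower they were Kcnh7 (-2.09), Kcnip1 (-1.89), Kcnc2 (-1.84), Kcnmb4 (-1.58), Kcns3 (-1.54) and Kcnab2 (-1.12). Calls among all probes rose from 4462 to 6762 with this ratio. Kcnn1 fell short without background correction (0.88), with median centring (0.90), with the scanner ratio (1.95), under treat and without mouse 1 or mouse 2. Kcnc1 fell short without background correction (-0.87), under treat and without mouse 1, and Kcnc2 without background correction and under treat. Treat also dropped Kcna5, Kcnma1 and a probe each of Kcnh1 and Kcnip4; the cause of the other losses was not tested.

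The median ratio of the members, -0.03, became -0.19 with median centring, -0.22 with the scanner ratio, -0.35 with both channels required, -0.11 with array weights, 0.03 with no filter on dim probes, which turns its sign, and -0.143 to -0.0524 on leaving out 1 mouse. Median centring moved the median of all tested probes from -0.04 to 0.09 and the share of higher among all calls from 41.1% to 67.0%, and turned the sign of 12 members that had not passed, Kcnj10 among them. Kcnk1 was the only member in the high class under every ranking tried. Of the 34 members ranked above 50, 15 remained so among probes with curated transcripts and 4 when only probes above background in CPE were ranked, both of which rank fewer probes. The count of members above background in CPE was 31 on all arrays, 56 on at least 2, 57 on array 1 and 95 on array 3, and in the reference 95 on array 3 against 59 on all. Low signal over background therefore limits what can be said of most members.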
